A study of Nicotiana tabacum with 18 samples.

Results

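Va116 and GDH94 are the parental tobacco lines (Nicotiana tabacum) of the hybrid Va116×GDH94, and their leaf transcriptomes were compared gene by gene. Leaves of field-grown plants were taken 45 days after transplanting, and 3 libraries of Va116 were set against 3 libraries of GDH94, 6 of the 18 libraries of the series. The other 12 libraries come from Va116×GDH94, from K326 and GDH88, which are the parents of a second cross, and from the hybrid K326×GDH88, with 3 libraries each. No line carried a transgene or received a treatment according to the labels, and the study's methods describe a randomized field trial with 3 biological replicates. For the biomass measurements they describe leaves of 3 plants of a plot that were mixed. The labels do not say which plot gave which library, so the p values measure the spread between the 3 libraries of a line.

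The members are all genes with a mean of at least 1 FPKM in Va116 or in GDH94. This limit kept 35543 of the 69500 genes of the table and left out 33957. Of the genes kept, 33166 reached the limit in both parents, 671 in Va116 alone and 1706 in GDH94 alone. Just inside the limit, 7 genes had a larger mean of exactly 1 FPKM, and the nearest gene outside it had 0.997 FPKM. FPKM is the number of sequenced fragments of a gene divided by its length and by the size of the library. It is not a read count, so the depth behind each value is unknown and precision was taken from the spread between libraries.

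A hybrid receives one genome copy from each parent, and the differences between the parents set the range against which expression in the hybrid is called additive or non-additive. Parental differences can lie in regulatory sequence, in the number of gene copies or in the presence of a gene, and these are not told apart by RNA levels. N. tabacum is an allotetraploid whose genes often have a near-identical copy in the other subgenome, and the division of shared reads between such copies is an estimate. In whole-leaf RNA, fewer cells of a type and less RNA per cell cannot be told apart.

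The libraries of each parent lay close together. The median SD of a gene on the log2(FPKM + 1) scale was 0.083 in Va116 and 0.076 in GDH94, and the lowest correlation across genes within a line was 0.988 in both. The values of a library summed to between 945893 and 953051 FPKM in Va116, against 910305 to 914581 in GDH94. Values above 0 were listed for 42760 to 43233 genes in Va116 and for 43947 to 44138 genes in GDH94. Genes described as the Rubisco small chain, the leaf's carbon-fixing enzyme, summed to 15837 to 16527 FPKM in Va116 and to 10907 to 12230 FPKM in GDH94, so both sets carry the mark of green leaf. In the other cross, the library of K326 replicate 1 had the lowest sum of all 18, 887628 FPKM.

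A gene was called differentially expressed (DEG) when its limma p value, adjusted by the Benjamini-Hochberg method over all 35543 genes, was under 0.05 and its expression differed at least 2-fold, a log2 fold change of 1 or more in either direction. All fold changes are Va116 over GDH94 on the log2(FPKM + 1) scale, which understates the change of genes with low values. There were 1606 DEGs, 4.52% of the genes tested. Of these, 418 were higher in Va116 (1.18% of the genes tested) and 1188 were lower (3.34%). Genes that reached 1 FPKM in Va116 alone gave 204 of the higher DEGs, and genes that did so in GDH94 alone gave 372 of the lower. For a gene kept through 1 parent alone, the direction was set by that rule. The 33166 genes that reached the limit in both parents gave 1030 DEGs (3.11%), 214 higher and 816 lower in Va116. The 3 libraries of one parent lay wholly above the 3 of the other in 1592 of the DEGs, and in 60.5% of all genes tested. Without the 2-fold limit, 18466 genes passed the adjusted p value (52% of those tested). They split into 5367 higher (15.1%) and 13099 lower (36.9%) in Va116, and 16860 of them changed by under 2-fold. These counts were made only on the FPKM as deposited, where log2 fold changes centred on -0.13. How many of these small differences would remain under another scaling was not tested.

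The excess of genes lower in Va116 lay among the moderate changes. At 4-fold or more, 131 DEGs were higher in Va116 and 144 lower. At 8-fold or more the numbers were 58 and 47, and at 16-fold or more 22 and 14. The DEGs lower in Va116 had a median of 2.41 FPKM in Va116 and 8.68 FPKM in GDH94, and the DEGs higher in Va116 a median of 7.58 FPKM in Va116 and 1.08 FPKM in GDH94.

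The split between directions depended on how the libraries were put on one scale. With the FPKM as deposited, the genes tested had a median log2 fold change of -0.13, and 26.03% of the DEGs were higher in Va116. Median-ratio scaling, which moves that median to 0.00, gave 514 DEGs higher and 816 lower (38.6% higher), and quantile normalization gave 521 and 799 (39.5% higher). Scaling to equal FPKM totals gave 394 higher and 1345 lower. Genes with a mean of at least 100 FPKM in either parent, 1651 in number, took up 57.8% to 58.1% of the FPKM of the Va116 libraries and 52.8% to 53.0% of those of GDH94, and their median log2 fold change was 0.13. In all lower ranges of expression the median was negative. Fewer DEGs higher than lower in Va116 were found under each of these scalings.

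**Figure D1:**
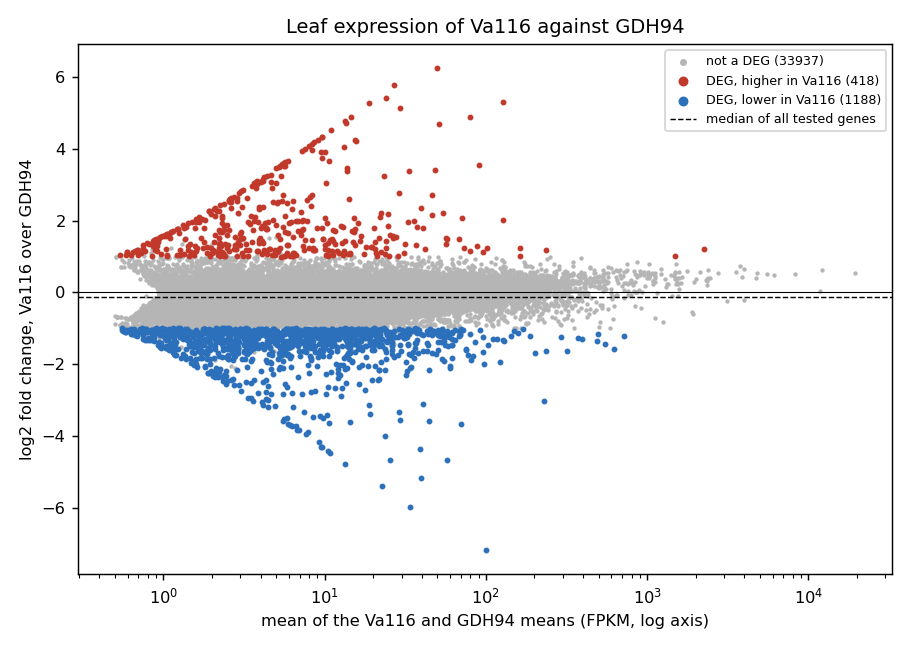
Each point is one of the 35543 genes tested, with the mean of the Va116 and GDH94 means in FPKM on a log axis and the log2 fold change of Va116 over GDH94 on the vertical axis. Red points are the 418 DEGs higher in Va116 and blue points the 1188 lower, and the dashed line is the median of all genes at -0.13. Changes of 16-fold or more occur in both directions, while the blue points crowd just below the 2-fold limit.

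The strongest differences were close to presence against absence. The DEG with the highest fold change, Nitab4.5_0000767g0010, is described as phloem protein 2-like, a family of lectins known from sieve tubes. It had 101, 95.6 and 103 FPKM in the Va116 libraries, against 0.28, 0.21 and 0.48 FPKM in those of GDH94 (log2 fold change 6.26 ± 0.08 SE, limma adjusted p 1.48e-08). The gene was thus abundant in all libraries of one parent and barely above 0 in the other. Nitab4.5_0027235g0010, a histone H2B gene whose product is a core protein of nucleosomes, had 54.1, 50.1 and 57.0 FPKM in Va116 and was listed at 0 in all GDH94 libraries (limma adjusted p 1.48e-08). Nitab4.5_0003356g0020, described as a K-box transcription factor (the K-box is a protein-binding domain of plant MADS-box factors), had 37.8, 33.9 and 41.9 FPKM in Va116 and was listed at 0 throughout GDH94. Nitab4.5_0005936g0010, described as calmodulin binding protein-like, showed the same picture, with 17.6, 18.3 and 18.8 FPKM in Va116 and 0 in each GDH94 library.

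Other genes at this end kept a low level in GDH94. Nitab4.5_0003626g0010, which has no description, reached 241, 248 and 259 FPKM in Va116 and 4.31, 4.92 and 6.79 FPKM in GDH94 (log2 fold change 5.32 ± 0.13). Nitab4.5_0011595g0010, also without a description, had 49.0, 47.0 and 48.2 FPKM in Va116, against 0.08, 0.09 and 0.25 FPKM in GDH94 (log2 fold change 5.43 ± 0.07). Nitab4.5_0000068g0480, whose product carries an RNA recognition motif, had 30.8, 31.0 and 30.2 FPKM in Va116 and 0.65, 0.71 and 0.77 FPKM in GDH94. In none of these genes did the libraries of the parents overlap.

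At the other end stood Nitab4.5_0000212g0010, a gene without a description. It had 0.17, 0.37 and 0.67 FPKM in Va116, against 199.8, 199.2 and 204.1 FPKM in GDH94 (log2 fold change -7.18 ± 0.12 SE, limma adjusted p 2.68e-08), the largest change of any gene tested. Nitab4.5_0000302g0140 belongs by its description to the HR-like lesion-inducer proteins, named after the hypersensitive cell death of plants under attack, and had 0.13, 0.13 and 0.05 FPKM in Va116 and 45.3, 45.1 and 45.6 FPKM in GDH94 (log2 fold change -5.39 ± 0.06). Nitab4.5_0003771g0010 encodes a CAP-domain protein of the allergen V5 type, the family that holds pathogenesis-related protein 1. It had 0.80, 1.43 and 1.38 FPKM in Va116, against 79.3, 78.0 and 76.4 FPKM in GDH94 (log2 fold change -5.18 ± 0.11). Nitab4.5_0000363g0020, described as a nitrogen regulatory PII protein (PII proteins sense the carbon and nitrogen state of the chloroplast), was listed at 0 in the 3 Va116 libraries and had 29.0, 26.3 and 24.5 FPKM in GDH94.

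Also far lower in Va116 were 2 described zinc finger genes and one described as Unknown. Nitab4.5_0001740g0070, of the HIT type, had 0, 0 and 0.04 FPKM in Va116, against 21.7, 21.3 and 21.8 FPKM in GDH94. Nitab4.5_0009661g0010 is of the A20/AN1 type, which is known from stress-associated proteins, and had 2.09, 2.60 and 3.55 FPKM in Va116, against 76.4, 75.8 and 75.0 FPKM in GDH94. Nitab4.5_0001737g0010, described as Unknown, had 0.10, 0 and 0.17 FPKM in Va116 and 69.3, 69.0 and 65.3 FPKM in GDH94.

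**Figure D2:**
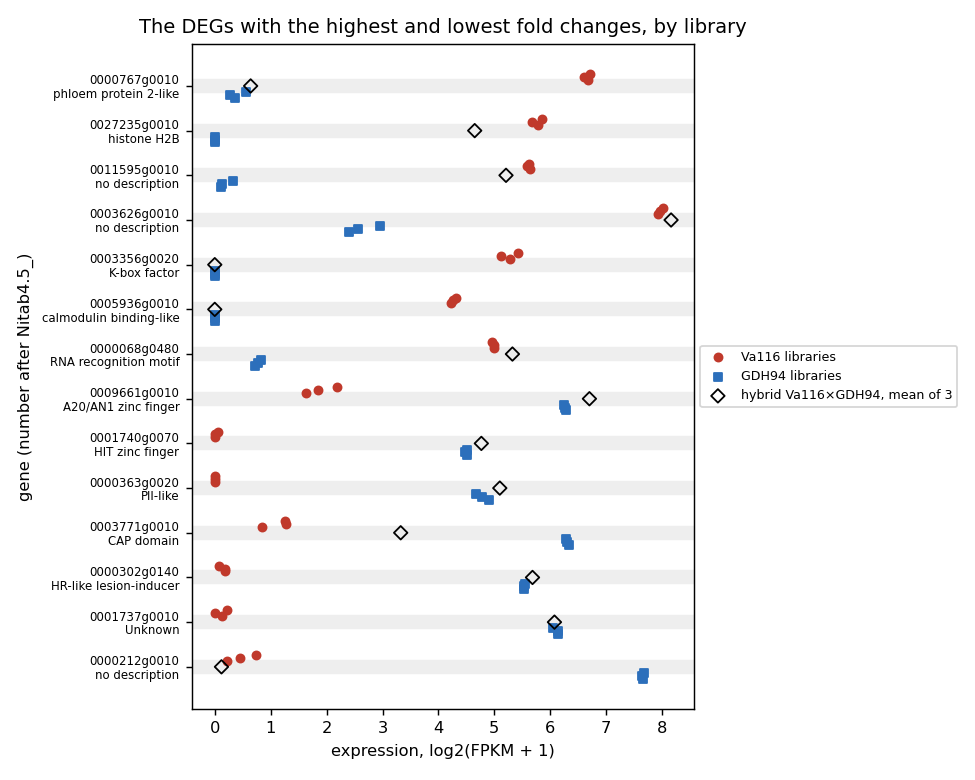
The 14 DEGs with the highest and lowest fold changes, by rank over all DEGs and over those with a description, are shown with one point per library on the log2(FPKM + 1) scale. Red circles are the Va116 libraries, drawn above the blue squares of GDH94, and open diamonds are the mean of the 3 hybrid libraries. The libraries of a parent lie close together and the parents are far apart. The diamond falls at the lower parent in 4 of the genes, Nitab4.5_0000767g0010, Nitab4.5_0003356g0020, Nitab4.5_0005936g0010 and Nitab4.5_0000212g0010. In the other genes it lies above the lower parent.

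Over the table, 86 tested genes were listed at 0 in all GDH94 libraries with a mean of at least 1 FPKM in Va116, and 62 of them were DEGs. In the other direction, 91 genes were listed at 0 in all Va116 libraries with a mean of at least 1 FPKM in GDH94, of which 41 were DEGs. The direction of change was fixed in advance by how these genes were chosen. The levels in the parent that expressed them were mostly low, with medians of 2.26 FPKM for the 86 genes in Va116 and 2.09 FPKM for the 91 in GDH94. In the hybrid, 25 of the 86 and 47 of the 91 were listed at 0 in all libraries as well, while 48 and 27 reached 1 FPKM.

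DEGs were often neighbours. The identifiers name a scaffold of the genome assembly and the order of genes on it, and 1109 tested genes followed a DEG as the next tested gene of the same scaffold. Of these, 200 were DEGs themselves (18.0%), against 3.77% of the genes that followed a gene that was not a DEG and 4.52% of all genes tested. Both genes of a pair changed in the same direction in 175 of the 200 pairs and in opposite directions in 25. There were 115 runs of at least 2 consecutive DEGs that changed in the same direction and 32 of at least 3, and the longest held 8 genes. Neighbouring genes can be copies of each other and are not independent, so these shares are a description of these 6 libraries.

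On 21 scaffolds at least 4 genes, and at least 50% of the genes tested, were DEGs. They carried 135 DEGs among 193 tested genes, 85 higher and 50 lower in Va116, which is 8.41% of all DEGs. On 18 of the 21 every DEG changed in one direction. Genes higher in Va116 made up 63.0% of these DEGs, against 26.03% of all DEGs.

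Scaffold Nitab4.5_0001198 held the most. Of its 24 tested genes, 16 were DEGs, all higher in Va116, and the remaining 8 stayed below the 2-fold limit, 7 of them with higher and 1 with lower values in Va116. Its strongest gene, Nitab4.5_0001198g0120, had 150.4, 157.3 and 155.5 FPKM in Va116, against 3.99, 4.84 and 3.97 FPKM in GDH94 (log2 fold change 4.89 ± 0.07). Further along, Nitab4.5_0001198g0230 had 84.0, 92.1 and 90.8 FPKM in Va116 and 7.33, 6.43 and 8.97 FPKM in GDH94. Nitab4.5_0001198g0330 had 79.7, 81.4 and 83.2 FPKM in Va116 and 30.4, 30.9 and 32.3 FPKM in GDH94. The size of the change thus differed among these genes while the direction was shared, and none of the 24 has a description. Some DEGs of this scaffold, among them Nitab4.5_0001198g0090 and Nitab4.5_0001198g0220, reached 1 FPKM in Va116 alone, so the filter set their direction.

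Scaffold Nitab4.5_0000201 showed the reverse. Of its 22 tested genes 12 were DEGs, all lower in Va116, and 21 of the 22 had negative fold changes, with a median log2 fold change of -1.01 over the 22. The only described gene, Nitab4.5_0000201g0200, encodes a linker histone H1/H5 domain with an AT hook, a DNA-binding feature of chromatin proteins. It had 5.85, 8.35 and 7.71 FPKM in Va116, against 31.0, 40.8 and 35.9 FPKM in GDH94 (log2 fold change -2.16 ± 0.14). The most abundant gene, Nitab4.5_0000201g0290, had 92.6, 96.3 and 97.9 FPKM in Va116 and 197.1, 213.5 and 196.6 FPKM in GDH94. Most changes on this scaffold lay near 2-fold, in contrast to scaffold Nitab4.5_0001198, and the calls of Nitab4.5_0000201g0030 and Nitab4.5_0000201g0140 were lost when single libraries were left out. Under median-ratio scaling 6 of the 12 genes stayed DEGs, and under quantile normalization 7, both under 50% of the 22 genes tested, while 21 genes kept negative fold changes.

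On 3 further scaffolds many genes had little or no expression in GDH94. All 8 tested genes of scaffold Nitab4.5_0002587 were DEGs higher in Va116, and 5 of them were listed at 0 in every GDH94 library. Among these is Nitab4.5_0002587g0020, described as a peptide chain release factor of the eRF1 type, which ends translation at stop codons, with 16.04, 17.04 and 16.82 FPKM in Va116. Nitab4.5_0002587g0040 had 58.3, 59.4 and 57.2 FPKM in Va116 and 0.57, 0.60 and 0.90 FPKM in GDH94. All 8 tested genes of this scaffold reached the limit of 1 FPKM in Va116 alone, so the filter set their direction. The scaffold carries 13 genes in all, and those under the limit in both parents were not tested. Scaffold Nitab4.5_0001526 had 9 DEGs among 12 tested genes, all higher in Va116, led by Nitab4.5_0001526g0160 with 15.6, 17.9 and 16.5 FPKM in Va116, against 0.06, 0.19 and 0.16 FPKM in GDH94. Scaffold Nitab4.5_0000697 had 8 among 12, also all higher in Va116, and Nitab4.5_0000697g0070 there had 62.1, 59.6 and 62.1 FPKM in Va116 and 6.06, 4.88 and 4.20 FPKM in GDH94. Of the DEGs of both scaffolds, only Nitab4.5_0001526g0040, Nitab4.5_0001526g0070, Nitab4.5_0001526g0120, Nitab4.5_0000697g0070, Nitab4.5_0000697g0080 and Nitab4.5_0000697g0170 also reached the limit in GDH94. The direction of their other DEGs was set by the filter.

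**Figure D3:**
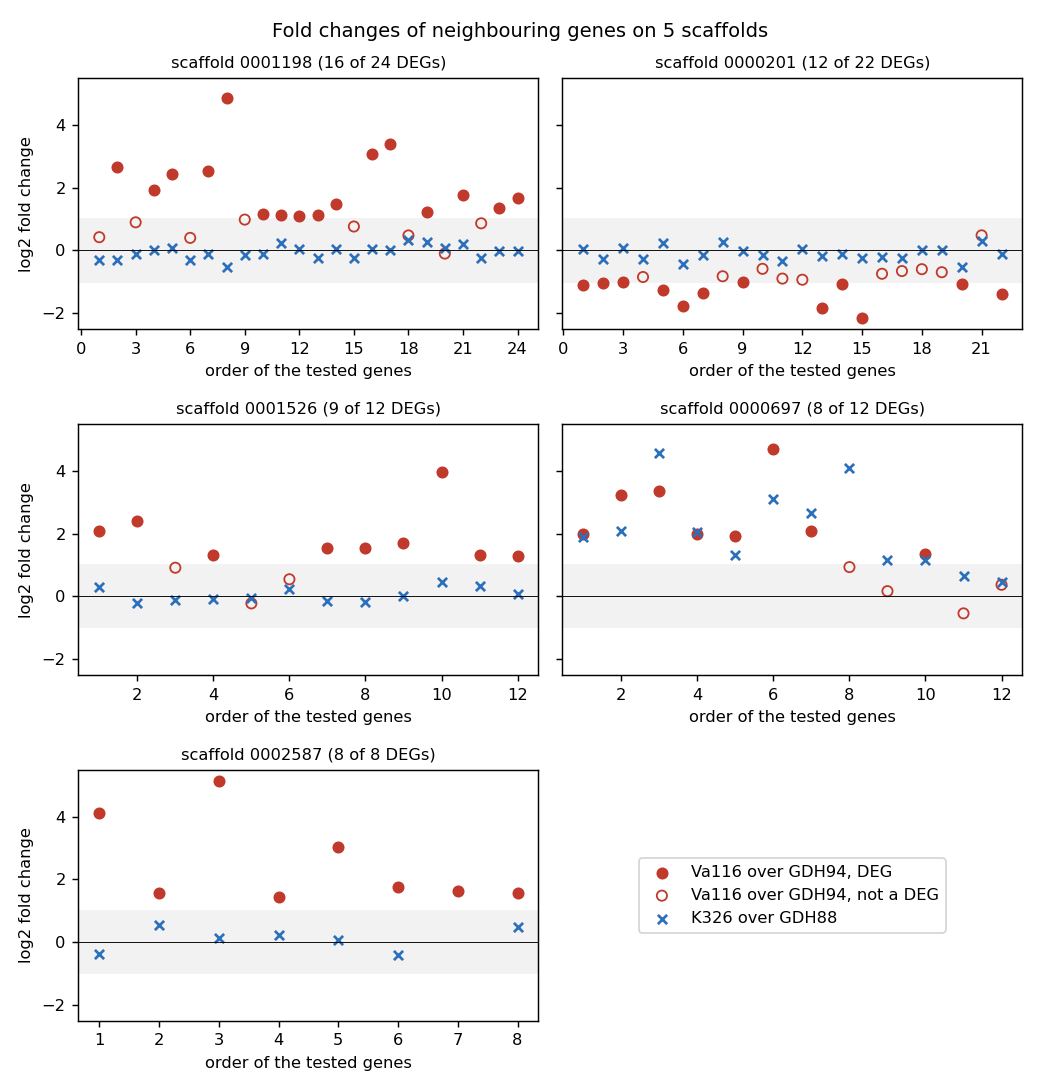
The log2 fold change of each tested gene is plotted in its order along 5 scaffolds, as circles for Va116 over GDH94 (filled for DEGs, open for other genes) and as crosses for K326 over GDH88. The grey band marks changes under 2-fold. Filled circles lie above the band on 4 scaffolds and below it on scaffold Nitab4.5_0000201, and the crosses leave the band on scaffold Nitab4.5_0000697, where 10 genes were DEGs of K326 and GDH88.

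The parents of the other cross, whose libraries did not enter these calls, were set beside the DEGs. Over all 1606 DEGs, K326 and GDH88 were both nearer to Va116 in 41.2% and both nearer to GDH94 in 27.0%, so no single line stood apart throughout. Across the DEGs higher in Va116, both K326 and GDH88 had a mean nearer to Va116 than to GDH94 in 242 of 418 genes (57.9%) and nearer to GDH94 in 84. Across the DEGs lower in Va116 they were both nearer to Va116 in 419 of 1188 (35.3%) and both nearer to GDH94 in 350 (29.5%). At 4-fold or more, both were nearer to Va116 in 93 of the 131 DEGs higher in Va116, and both nearer to GDH94 in 60 of the 144 lower in Va116. On the 21 scaffolds, the DEGs higher in Va116 had both lines nearer to Va116 in 75 of 85. The 50 DEGs lower in Va116 on these scaffolds were split, with both lines nearer to Va116 in 27 and both nearer to GDH94 in 20. Without K326 replicate 1, K326 was nearer to Va116 in 955 of the 1606 DEGs, against 863 with it.

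The pattern of lines was shared by some scaffolds and differed between others. On scaffolds Nitab4.5_0001198 and Nitab4.5_0001526 both K326 and GDH88 were nearer to Va116 in every DEG, so GDH94 was the line with low values. On scaffold Nitab4.5_0000201 GDH94 was the line with high values, with K326 nearer to Va116 in 12 and GDH88 in 11 of the 12 DEGs. Scaffold Nitab4.5_0000697 differed from these, since K326 was nearer to Va116 in all 8 DEGs and GDH88 nearer to GDH94 in all 8. On scaffold Nitab4.5_0001740, which carries the HIT zinc finger gene, both lines were nearer to GDH94 in all 6 DEGs, which were lower in Va116, and so was the hybrid.

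The contrast of K326 over GDH88, fitted in the same way on its own 6 libraries, gave 662 DEGs among 35076 genes (1.89%). They included 177 of the DEGs of Va116 and GDH94, which is 11.0% of the 1606 and 26.7% of the 662. Of these 177 genes, 56 changed in the same direction in both pairs, while 94 were lower in Va116 and higher in K326 and 27 higher in Va116 and lower in K326. The difference of both contrasts was tested directly over the 12 parental libraries and passed the adjusted p value and the 2-fold limit in 2698 of 36114 genes (7.47%), which include 1228 of the 1606 DEGs. The 1606 DEGs were chosen from libraries that also enter this test, so this overlap is no independent evidence. In the 1439 DEGs that were also tested between K326 and GDH88, that second fold change lay within 0.5 of 0 on the log2 scale in 981 (68.2%).

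**Figure D4:**
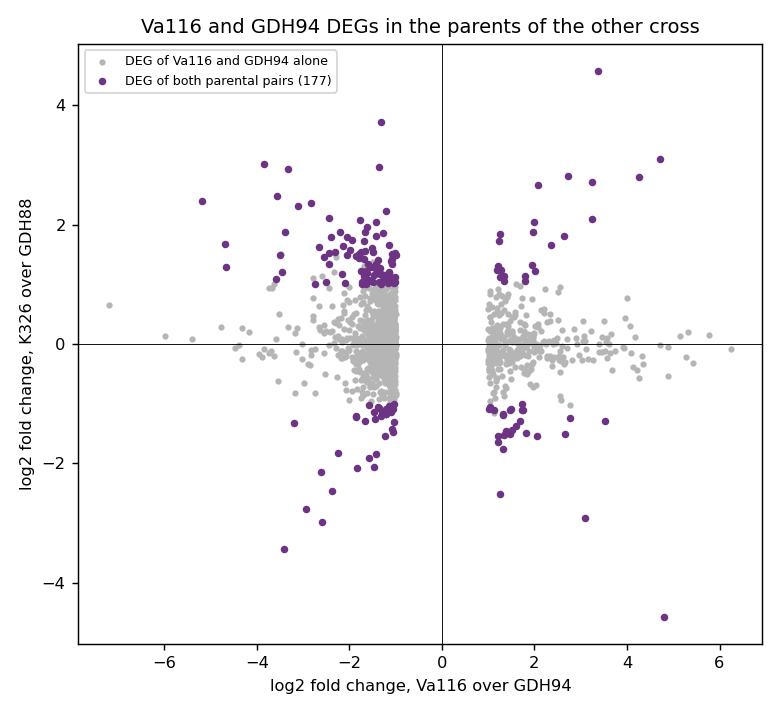
Each point is one of the 1439 DEGs of Va116 and GDH94 that were also tested between K326 and GDH88, with the log2 fold change of Va116 over GDH94 on the horizontal axis and that of K326 over GDH88 on the vertical axis. Purple points are the 177 genes that were DEGs in both pairs. Most points lie near 0 on the vertical axis, and the purple ones fall most often in the upper left, lower in Va116 and higher in K326.

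Among the 6 pairs of the 4 parents, over the genes tested here, Va116 and GDH94 had the lowest correlation and the most genes 2-fold apart. Their median correlation across genes was 0.9502, against 0.957 to 0.972 in the other 5 pairs, and 1682 genes had means at least 2-fold apart, against 656 to 1152. The median absolute log2 difference of all genes was 0.23 between Va116 and GDH94 and slightly larger, 0.24, between GDH94 and K326. These pairs share lines, and all values were taken over the 35543 genes chosen by their level in Va116 or GDH94. Genes that reached 1 FPKM only in K326 or GDH88 were left out, which can tilt the ranking toward Va116 and GDH94. The values are therefore a description of this gene set.

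Functional descriptions were at hand for 2031 genes, taken from the study's lists of genes that differed between the hybrid and one of its parents. These lists were made from the same libraries, so the shares below are no independent evidence of a direction. Of the described genes, 1595 were tested here and 481 were DEGs (30.2%, against 4.52% of all genes), 132 higher and 349 lower in Va116, with a median log2 fold change of -0.42. Each family below is to be read against these values.

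Pathogenesis-related proteins accumulate in tobacco leaves under attack by pathogens, where many of them act on microbial cell walls or membranes. Of 26 tested genes described as thaumatin, CAP, Barwin, chitinase or Bet v I proteins, 17 were lower in Va116 and 0 were higher, with a median log2 fold change of -1.40. All 6 CAP genes were lower, with log2 fold changes between -5.18 and -2.50, and so were all 3 family 19 chitinases, 4 of 8 thaumatin genes and 4 of 6 Barwin genes. Some of the lower genes reached 1 FPKM in GDH94 alone, so the filter set their direction. Among them are the CAP genes Nitab4.5_0004861g0030, Nitab4.5_0001477g0080 and Nitab4.5_0007488g0040, with means of 0.58, 0.94 and 0.55 FPKM in Va116. The 3 Bet v I genes were not DEGs. Of the 4 Barwin genes that were lower, 3 are described as expansins, which loosen plant cell walls. The call of the chitinase Nitab4.5_0000022g0230 was lost in 3 of the 6 fits that left out a library. The summed level of the 26 genes was 129.5 to 133.4 FPKM in Va116, against 616.8 to 618.8 FPKM in GDH94. It was 299 to 475 FPKM in K326 and 133.7 to 138.7 FPKM in GDH88, so Va116 and GDH88 were the low lines.

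Family 17 glucanases, the beta-1,3-glucanases, include enzymes that degrade callose and fungal walls. Of 9 tested, 7 were lower in Va116 and 0 higher. Their summed level was 15.8 to 18.4 FPKM in Va116 and 149 to 153 FPKM in GDH94, without overlap. The strongest, Nitab4.5_0008527g0010, had 0.94, 1.44 and 1.59 FPKM in Va116, against 28.1, 26.3 and 27.9 FPKM in GDH94 (log2 fold change -3.62 ± 0.11).

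Genes of defence signalling showed a less even picture. NB-ARC proteins are the intracellular immune receptors of plants, and of 22 tested 4 were higher and 9 lower in Va116. Nitab4.5_0021935g0010 had 8.53, 8.87 and 8.95 FPKM in Va116 and 0.01, 0.04 and 0.03 FPKM in GDH94, whereas Nitab4.5_0002977g0140 had 0.74, 0.65 and 0.81 FPKM in Va116 and 20.8, 20.7 and 20.1 FPKM in GDH94. These are the extremes of the family in each direction, both with under 1 FPKM in one parent, and 9 of the 22 genes were not called. Of 26 WRKY factors, which regulate defence genes, 8 were lower and 0 higher in Va116, and Nitab4.5_0002758g0040 had 9.92, 11.1 and 12 FPKM in Va116, against 54.7, 53.4 and 54.1 FPKM in GDH94. Of 26 AP2/ERF factors 7 were lower and 1 higher. The share of DEGs in the WRKY and in the AP2/ERF factors was close to that of all described genes. Of 63 protein kinases 12 were lower and 2 higher, a share of DEGs under that of all described genes.

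Among enzymes, 8 of 13 dioxygenases of the 2-oxoglutarate type were lower in Va116 and 0 higher, with a median log2 fold change of -1.32. These enzymes oxidize hormones and secondary metabolites. Peroxidases were lower in 4 of 8 genes, and Nitab4.5_0008304g0020 had 0.18, 0.06 and 0.47 FPKM in Va116, against 6.86, 8.49 and 7.21 FPKM in GDH94. Lipoxygenases include enzymes that start the synthesis of jasmonate and related oxylipins. Of 7 genes found by this word in their descriptions, 3 were lower, including the neighbours Nitab4.5_0002712g0010 and Nitab4.5_0002712g0020. The descriptions of these neighbours name only a PLAT/LH2 domain of the lipase or lipoxygenase type, so it is open whether they encode lipoxygenases. The second of these had 6.04, 5.80 and 6.45 FPKM in Va116 and 27.5, 28.8 and 27.3 FPKM in GDH94 (log2 fold change -2.02 ± 0.05). Of 29 cytochrome P450 genes 7 were lower and 1 higher, a share of DEGs close to that of all described genes. The strongest of the lower ones, Nitab4.5_0000806g0160, had 0.51, 0.85 and 0.48 FPKM in Va116, against 10.7, 10.8 and 9.69 FPKM in GDH94.

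Lipid transfer proteins, small proteins of the cell surface, were lower in Va116 in 8 of 15 genes and higher in 1, and Nitab4.5_0001194g0100 had 50.7, 54.5 and 45.4 FPKM in Va116, against 193, 213 and 179 FPKM in GDH94. The call of the one higher gene, Nitab4.5_0003983g0030, was lost in 4 of the 6 fits that left out a library. Sieve element occlusion genes, whose products plug wounded sieve tubes, were lower in 5 of 6. Of the 7 phloem protein 2 genes, 0 were lower and 1 was higher, the gene with the highest fold change of all DEGs. Summed together, the 13 phloem genes of both kinds had 263.9 to 283.4 FPKM in Va116, against 397.3 to 403.4 FPKM in GDH94. No sum was taken for either kind alone, and the part of phloem tissue in these differences was not tested.

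Genes of dividing cells were looked at next. Of 26 histone genes 3 were lower and 1 higher in Va116, and without single libraries the counts ranged from 2 to 3 lower and from 1 to 3 higher. Under median-ratio scaling and under quantile normalization 2 were lower and 3 higher, so the larger number changed sides. One of the lower ones, the histone H4 gene Nitab4.5_0000182g0080, was listed at 0 in Va116 and varied in GDH94, with 5.10, 3.35 and 17.4 FPKM. All 8 kinesin genes, motor proteins of the spindle and cytoskeleton, had negative log2 fold changes between -0.67 and -0.23, and 0 were DEGs.

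**Figure D5:**
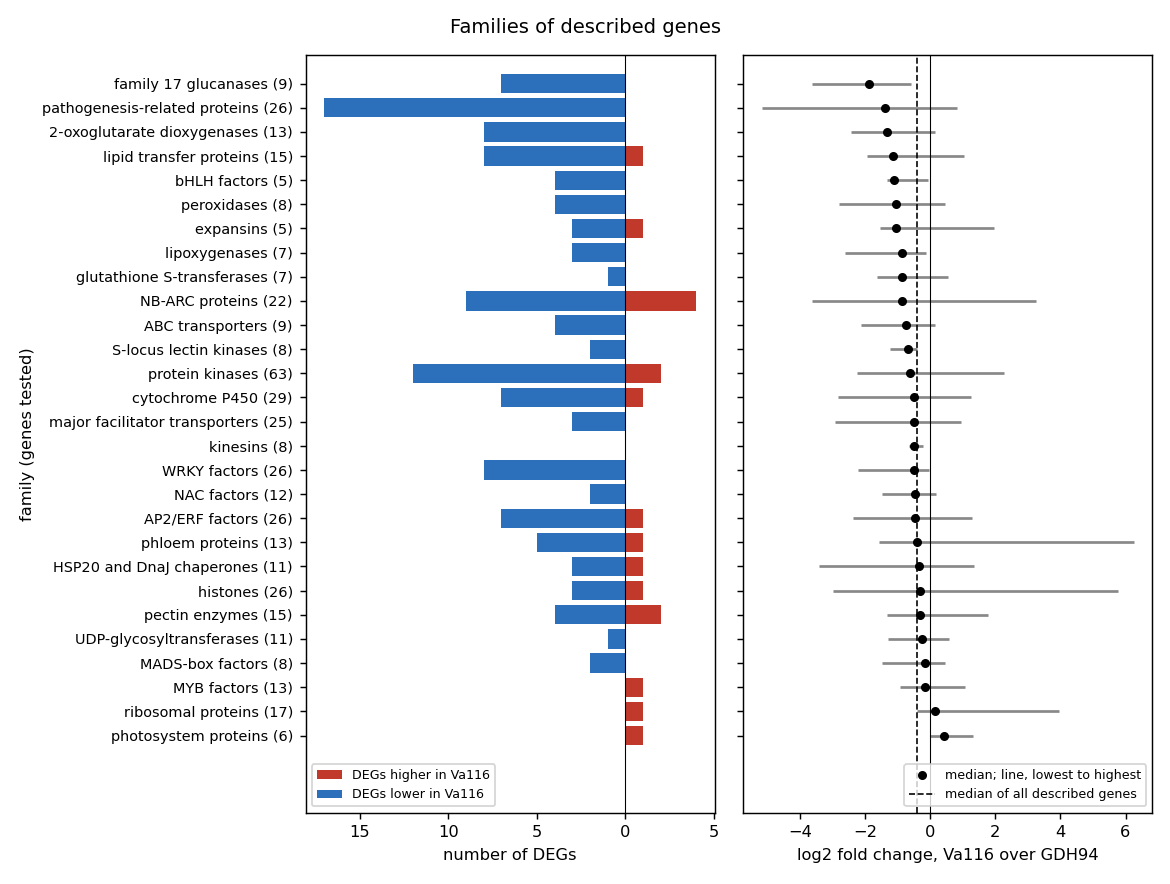
The left panel gives, for each family with at least 5 tested genes, the number of DEGs lower in Va116 as blue bars and higher in Va116 as red bars. The right panel gives the median log2 fold change of the family as a point, its lowest and highest member as a line, and the median of all described genes as a dashed line at -0.42. The family 17 glucanases and the pathogenesis-related proteins have the lowest medians, -1.89 and -1.40.

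Photosynthesis and respiration genes are of interest because the study followed them by quantitative PCR in this cross. None of the 10 genes of its primer list was a DEG between the parents. The list includes NtLR25, which the study names for neither process and whose role it does not state. Of the 10 genes, 5 passed the adjusted p value with changes under 2-fold. Those with the largest differences were NtLhcb1 and NtLhcb2, which encode light-harvesting chlorophyll a/b proteins of photosystem II, and NtSDHB, a subunit of mitochondrial succinate dehydrogenase. Their primers, designed by the study, are shown because they define the transcripts meant by these names, written 5′ to 3′ in lower case with no part marked.
NtLhcb1 forward: tgggacactgctggacttt
NtLhcb1 reverse: gcaacacggtaaccctcaa
NtLhcb2 forward: tctccgagcaaactccatc
NtLhcb2 reverse: gcctccgccaactctgtat
NtSDHB forward: tcttatcttggtcccgctgc
NtSDHB reverse: gtcaaggcgctcctgagtat

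NtLhcb1 (Nitab4.5_0002814g0050) had 17.3, 17.4 and 17.9 FPKM in Va116, against 9.55, 12 and 11.1 FPKM in GDH94 (log2 fold change 0.65 ± 0.08, limma adjusted p 0.00036). NtLhcb2 (Nitab4.5_0005511g0010) had 46.6, 46.3 and 48.3 FPKM in Va116, against 29.3, 25.6 and 27.8 FPKM in GDH94 (log2 fold change 0.75 ± 0.05, limma adjusted p 2.3e-05). Both light-harvesting genes were higher in Va116 without overlap. So was NtSDHB (Nitab4.5_0002158g0230), with 8.96, 9.38 and 9.31 FPKM in Va116 and 5.65, 6.39 and 5.36 FPKM in GDH94 (log2 fold change 0.59 ± 0.07, limma adjusted p 0.00032).

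Of the other genes of respiration, NtMDH1, a malate dehydrogenase, had 202.6, 205.9 and 203.0 FPKM in Va116, against 221.0, 228.0 and 226.1 FPKM in GDH94. Its log2 fold change of -0.14 ± 0.02 (limma adjusted p 0.0010) was close to the median of all genes and changed sign, to 0.01, under median-ratio scaling. NtOGDH, of the 2-oxoglutarate dehydrogenase complex, had 9.65, 9.80 and 9.58 FPKM in Va116 and 11.1, 11.2 and 10.6 FPKM in GDH94 (log2 fold change -0.16 ± 0.05, limma adjusted p 0.023). Neither gene thus departed from the bulk of genes by much.

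Genes named after proteins that the chloroplast encodes had low values and overlapping libraries in both parents. The photosystem II reaction centre gene NtPsb had 8.60, 7.05 and 6.27 FPKM in Va116 and 4.98, 10.8 and 6.88 FPKM in GDH94 (log2 fold change 0.00 ± 0.23, limma adjusted p 0.99), and it turned negative without any of 3 single libraries. NtPsbA, of the same reaction centre, had 0.85, 1.57 and 1.33 FPKM in Va116 and 1.03, 0.78 and 0.86 FPKM in GDH94, and the ATP synthase gene NtatpF had 12.6, 11.7 and 9.40 FPKM in Va116 and 7.69, 13.0 and 10.2 FPKM in GDH94. NtrbcL, for the large chain of Rubisco, had 4.81, 3.40 and 5.21 FPKM in Va116, against 4.26, 5.48 and 5.54 FPKM in GDH94. With adjusted p values of 0.20, 0.55 and 0.38 in limma, these 3 genes gave no call in either direction. The gene NtLR25 of the same list had 161.8, 160.8 and 153.7 FPKM in Va116 and 150.3, 157.5 and 148.6 FPKM in GDH94 (log2 fold change 0.06 ± 0.03, limma adjusted p 0.15).

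The 6 described photosystem genes summed to 351 to 367 FPKM in Va116 and 204 to 228 FPKM in GDH94, and 1 of them was a DEG, higher in Va116. Ribosomal proteins gave 1 DEG among 17 genes, with a median log2 fold change of 0.14.

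In the hybrid, whose libraries did not enter the calls, the mean lay between the parents in 964 of the 1606 DEGs, above both in 247 and below both in 395. It was nearer to Va116 in 1089 genes (67.8%) and nearer to GDH94 in 517. These places are given on the FPKM as deposited alone, which summed to 984296 to 1014325 in the hybrid libraries, more than in either parent. Among the 36 DEGs of 16-fold or more, the hybrid stayed within 10% of the parental distance from the lower parent, or below it, in 9, made up of 4 genes higher and 5 lower in Va116. More often it was at the higher parent, in 12 genes higher and 8 lower in Va116. It was in between in 6 genes higher and 1 lower in Va116.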

How the data were processed

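Leaf RNA libraries of Va116 and GDH94, 3 each, were compared. The labels gave the line and the replicate number of every library. Per the study's methods, reads were aligned by HISAT2 to the genome of tobacco K326 and quantified by RSEM. The authors deposited 1 FPKM value per gene and library, with 2 decimals. StringTie is also named in the submitters' processing notes, and versions are not given in the sources used here. All lines were aligned to the genome of one of them, and how sequence differences from K326 bear on single values was not tested. The deposited FPKM keep no read counts, so a count test was not possible and no detection limit was computed per gene.

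Genes with a mean of at least 1 FPKM in either line were tested as log2(FPKM + 1) with limma 3.58.1 in R 4.3.3 (lmFit, and eBayes with a trend), two-sided, with only the 6 libraries of the pair in the fit and no covariate. DEGs had an adjusted p value under 0.05 (Benjamini-Hochberg) and an absolute log2 fold change of 1 or more. This limit is lower than that of the study's methods, which is among the alternatives. K326 and GDH88 were fitted alike, and the difference of both contrasts over 12 libraries. The procedure was tested on simulated data.

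The genes named are the 5 DEGs highest and the 5 lowest in fold change, with separate libraries, over all DEGs and over described DEGs, the 10 genes of the primer list, the highest and lowest DEG of each family with at least 3 DEGs, of 35 families searched, and the genes of the scaffolds with most DEGs, where a tie for the fourth place gave 5 scaffolds. Families were found by words in the descriptions of the study's supplementary sheets, one of which was at hand only in part. Members, lists and rules were chosen with earlier results of these data known. A search of RefSeq gene entries found 0 of the identifiers, so no sequence other than the study's primers is shown.

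The 3 replicate numbers are shared by both lines. They were not taken to pair libraries. Alternatives covered another pseudocount, other filters on low values, 3 scalings between libraries, a replicate block, each library left out, more libraries in the fit, and other limits of fold change. No library pair held identical values. Figures were drawn with Matplotlib 3.10.9.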

Additional observations from a re-analysis of the deposited data

Results flagged for a closer look

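The fold changes of Va116 over GDH94 and of K326 over GDH88 differed, by a limma test of the difference over the 12 parental libraries, in 2698 of 36114 genes. Of the 24 genes named for their fold change or from the primer list, 16 were among these, with adjusted p values of at most 1.2e-05. Of the 16, the 14 named for their fold change were chosen on Va116 over GDH94, from libraries that also enter this test. A large difference in these 14 was thus built into their choice wherever K326 over GDH88 was small. The difference, Va116 over GDH94 minus K326 over GDH88 on the log2(FPKM + 1) scale, was 6.33 for Nitab4.5_0000767g0010, 5.75 for Nitab4.5_0011595g0010 and 5.61 for Nitab4.5_0027235g0010. It was 5.5 for Nitab4.5_0003356g0020, 5.11 for Nitab4.5_0003626g0010, 4.83 for Nitab4.5_0005936g0010 and 4.64 for Nitab4.5_0000068g0480. For these 7 genes the log2 fold change of K326 over GDH88 lay between -0.57 and 0.21. NtLhcb2 (Nitab4.5_0005511g0010) and NtLhcb1 (Nitab4.5_0002814g0050) gave 1.37 and 1.29, higher in Va116 than in GDH94 and lower in K326 than in GDH88.

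On the negative side the difference was -7.83 for Nitab4.5_0000212g0010, -7.57 for Nitab4.5_0003771g0010, -6.12 for Nitab4.5_0001737g0010 and -5.48 for Nitab4.5_0000302g0140. It was -5.07 for Nitab4.5_0000363g0020, -4.41 for Nitab4.5_0001740g0070 and -4.36 for Nitab4.5_0009661g0010. In Nitab4.5_0003771g0010 the 3 libraries of K326 ranged between 4.57 and 47.8 FPKM, so its value carries more uncertainty than the others. Of 113 further genes named from families and scaffolds, 78 also differed between the contrasts. These were named by rules that used the calls of Va116 and GDH94, so the same limit holds. The groups held 3 libraries each, too few for a search for single outlying libraries.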

How the results depend on the processing

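The counts as given were 1606 DEGs, 418 higher and 1188 lower in Va116, 91 genes at 0 in Va116 and 86 at 0 in GDH94, 662 DEGs of K326 and GDH88, 177 shared and 2698 genes that differed between the contrasts. With a pseudocount of 0.1 there were 2737 DEGs, 2131 of them lower in Va116, 1189 DEGs of K326 and GDH88 and 356 shared by both pairs. With a mean of at least 5 FPKM there were 1070 DEGs, 274 higher in Va116, with 16 genes at 0 in Va116 and 28 at 0 in GDH94, 440 DEGs of K326 and GDH88 and 1782 genes that differed between the contrasts. At a log2 limit of 2 there were 275 DEGs, 131 higher and 144 lower, 76 DEGs of K326 and GDH88, 21 shared, and 528 differing between the contrasts. With no fold limit there were 18466 genes, 5367 higher and 13099 lower, 6856 of K326 and GDH88, 4261 shared, 14139 differing between the contrasts, and 52.2% of the genes after a called gene were called, against 52% of all tested. For the filter and the fold limits these shifts follow from fewer or more genes passing. For the pseudocount the cause was not tested. Leaving out each library in turn gave 1603 to 1666 DEGs, 411 to 437 higher and 1183 to 1239 lower in Va116, 17.2% to 17.9% after a DEG, 91 to 133 genes at 0 in Va116, 90 to 118 at 0 in GDH94, 619 to 732 DEGs of K326 and GDH88, 153 to 183 shared and 2576 to 2894 differing between the contrasts. With the replicate number as a block there were 1627 DEGs, 427 higher and 1200 lower, and no other count moved beyond 1.5 times. Same-numbered libraries of both lines did not deviate together (correlations of 0.0069, 0.0089 and -0.017), and 2 of the 6 libraries correlated best with their own number. With 9 or 18 libraries in the fit there were 1588 and 1595 DEGs. Among named genes, the log2 fold change changed sign for NtMDH1 under median-ratio scaling (0.012), and under quantile normalization for NtrbcL (0.013), NtLR25 (-0.0057) and Nitab4.5_0001198g0270 (0.078). NtPsb had -0.047 at equal FPKM totals and -0.22 to 0.27 with single libraries left out, and NtatpF -0.044 to 0.30. Over all settings, 13 named genes lost their call in at least 1 setting and 11 gained one. Read depth per gene is unknown, so it cannot be said which low values would hold at greater depth.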
